A study of Mus musculus with 112 samples.

Results

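The genes described here are interferon-induced antiviral genes, a set of 39 named genes that cells switch on when interferon reaches them. They were matched by symbol through the array's annotation to probe sets that name a single gene. Of the 39, 35 were measured, out of 18772 genes on the array. The other 4, Igtp, Irgm2, Parp9 and Dtx3l, sit only on probe sets shared by several genes and have no values here. Irf1 alone had more than 1 probe set, and the brighter of its 2 sets was used. The values come from 112 Affymetrix arrays of skin and tumours from 15 male FVBBX mice, a backcross made by crossing Spretus x FVB F1 animals to FVB. Of the mice, 6 were HrasKO and 9 were wild type (WT). A single 25 mg dose of the carcinogen DMBA was given to every mouse when 8 weeks old, followed by the tumour promoter TPA 2 times a week, so the dorsal skin that serves as baseline came from treated animals too. Primary tumours were removed above 1 cm and metastases were collected at sacrifice.

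Per the labels there were 15 dorsal skins (15 mice) and 27 papillomas (13 mice), the benign tumours. The carcinomas comprised 10 squamous ones (SCC, 8 mice, all WT), 12 spindle cell ones (10 mice) and 3 of mixed histology. The metastases comprised 24 SCC (11 mice, 3 HrasKO and 8 WT), 20 spindle (7 mice, 4 HrasKO and 3 WT) and 1 mixed. Metastases came from lung, lymph node, liver, spleen, thymus, kidney and a dorsal site. The labels do not say whether the HrasKO allele was present in every cell, and the targeted gene itself was not analysed here. Values are log2 intensities, on which a difference of 1 is a doubling, and arrays of 1 mouse in a group were averaged, since the mouse is the replicate.

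Interferons are secreted proteins that bind receptors on neighbouring cells and, through Janus kinases, activate STAT proteins. Type I and type III interferons activate a complex of STAT proteins with Irf9 that binds the interferon-stimulated response element, and interferon gamma activates STAT dimers that bind gamma-activated sequences. The induced genes include RNA sensors, enzymes that degrade or modify viral RNA, and GTPases that attack viruses and vacuoles. In skin and tumours, both epithelial cells and the immune cells that enter the tissue carry this programme.

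The letters of the response element can be read in front of many of these genes. RefSeq promoter windows (build GRCm38.p6), which run from 250 bases before to 50 bases after a start site, existed for 26 of the 35 measured genes. The motif searched was GAAANNGAAA on either strand, in which N is any base. It stood in the windows of 15 of the 26 genes (57.7%), against 1079 of all 27025 genes with a window (4.0%). A motif for gamma-activated sequences, TTCNNNGAA, which reads the same on both strands, stood in 7 of the 26 (26.9%), against 9.6% of all genes. Matches of the 2 motifs can overlap, as in front of Bst2. The following 60-base stretches lie upstream of 7 genes whose values are described further on, with every match to the first motif in capitals, and each reads 5′ to 3′ on the gene's own strand.
Bst2, chr8:71537565-71537624, minus strand: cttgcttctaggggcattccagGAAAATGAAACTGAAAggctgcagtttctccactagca
Ifit1, chr19:34640769-34640828, plus strand: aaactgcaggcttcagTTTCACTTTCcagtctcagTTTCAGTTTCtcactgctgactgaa
Ifit3, chr19:34583365-34583424, plus strand: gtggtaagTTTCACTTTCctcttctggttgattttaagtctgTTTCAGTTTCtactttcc
Isg15, chr4:156200856-156200915, minus strand: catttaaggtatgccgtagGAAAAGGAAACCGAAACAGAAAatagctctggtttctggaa
Irgm1, chr11:48871421-48871480, minus strand: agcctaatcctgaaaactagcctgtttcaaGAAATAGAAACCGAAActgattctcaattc
Gbp3, chr3:142559977-142560036, plus strand: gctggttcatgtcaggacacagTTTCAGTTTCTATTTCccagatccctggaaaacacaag
Rsad2, chr12:26456538-26456597, minus strand: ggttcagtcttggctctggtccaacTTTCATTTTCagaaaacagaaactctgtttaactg
In front of Isg15, 3 matches overlap, and in front of Ifit1 and Ifit3 there are 2 separate matches each. No match was found in the windows of Oasl1 and Oasl2. A match is a run of letters and not a measured binding site.

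Some arrays did not resemble their label. Each tumour array was compared over all genes with the means of the other arrays of skin, papillomas, SCC tumours and spindle tumours. Carcinomas and metastases of a histology were pooled for this. The SCC mean thus came mostly from metastases (24 arrays, against 10 of carcinomas). Of the SCC arrays, 9 correlated best with papillomas, among them 8 of the 10 SCC carcinomas, and 6 with spindle tumours. Of the papillomas, 4 correlated best with spindle tumours, 1 with skin and 1 with SCC, and 1 spindle carcinoma, from mouse 1949, correlated best with papillomas. The keratinocyte markers, 8 genes of the squamous epithelium, averaged 10.81 ± 0.28 in SCC carcinomas (SD, n = 8) and 7.49 ± 1.57 in spindle carcinomas (SD, n = 10), as the labels imply, but fell as low as 5.43 in an SCC metastasis and 5.71 in the papillomas of mouse 1815. Several results that rest on such arrays are given with and without them. The number of arrays limits the precision.

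The mean of the 35 genes was 7.12 ± 0.55 in skin (SD, n = 15), 6.93 ± 0.57 in papillomas (n = 13) and 6.97 ± 0.34 in SCC carcinomas (n = 8). It was 7.57 ± 0.57 in spindle carcinomas (n = 10), 7.87 ± 0.58 in SCC metastases (n = 11) and 7.92 ± 0.65 in spindle metastases (n = 7). Mice differed widely within each tissue: skin ran from 6.26 to 7.92 and papillomas from 6.14 to 7.67, so skin, papillomas and SCC carcinomas lay within 1 SD of each other. Within a mouse, the mean of the set was higher in the spindle metastases than in the spindle carcinomas in 7 of 7 mice, and higher in the SCC metastases than in the SCC carcinomas in 7 of 8. In bulk tissue, more RNA per cell and more cells of a kind cannot be told apart.

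**Figure D1:**
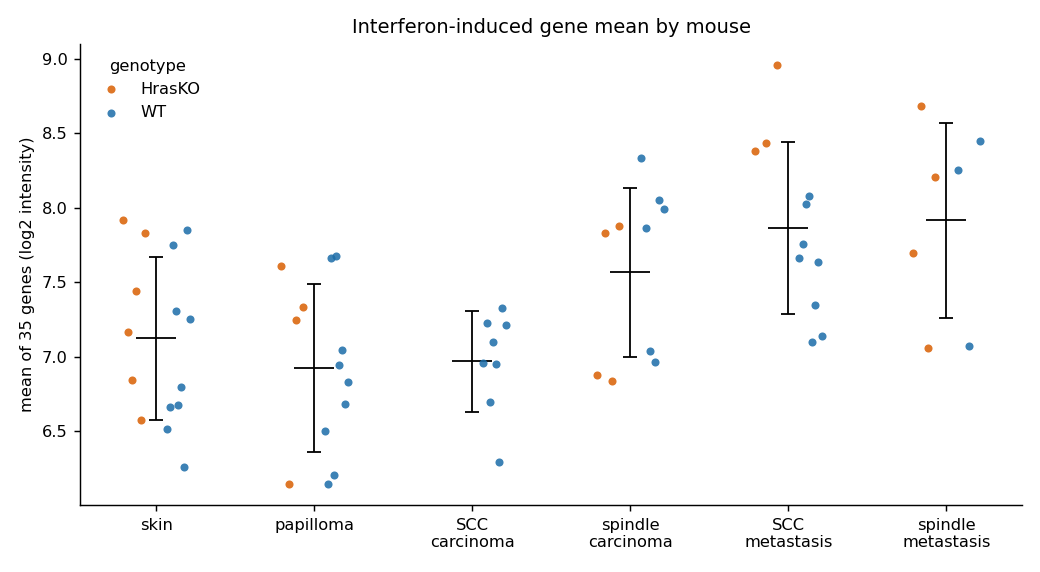
Mean log2 intensity of the 35 interferon-induced genes in each mouse (points, HrasKO orange and WT blue) for skin, papilloma, carcinoma and metastasis by histology, with the mean and SD over mice as black bars. Papillomas and SCC carcinomas reach 7.67 and 7.33 at most, and the 3 HrasKO SCC metastasis values, 8.38 to 8.96, lie above all 8 WT ones.

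Papillomas were compared with the dorsal skin of the same 13 mice. Papillomas carried far more Oasl1 and less Iigp1, Ifih1, Ifit2, Herc6 and Irf9. Of the 35 genes, 2 rose and 5 fell at an adjusted p under 0.05 (limma, mouse as a block). Over all genes tested, 24.5% rose and 18.1% fell, so neither count exceeds the share among all genes. The median difference of the 35 genes was -0.37 on the log2 scale, against 0.05 for all genes, and 10 of 35 had a positive difference.

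Oasl1 encodes a 2′-5′-oligoadenylate synthetase-like protein, known in mice to limit the translation of Irf7. Its level was 7.20 at the lowest, 8.86 at the median and 9.78 at the highest in papillomas (n = 13), against 5.22, 6.04 and 7.68 in skin (n = 15). Leaving aside the skin of mouse 1508, at 7.68, every skin lay below every papilloma, and the level was higher in the papilloma in 13 of 13 mice. The log2 difference was 2.58 ± 0.30 (SE, adjusted p = 1.5e-05). Iigp1, an immunity-related GTPase that loads onto the membranes of parasite vacuoles, moved the other way. It measured 4.59, 5.94 and 6.99 in papillomas (lowest, median and highest), against 6.08, 7.95 and 8.70 in skin, and it was lower in the papilloma in 12 of 13 mice. The difference was -1.72 ± 0.27 (SE, adjusted p = 0.00015).

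Ifih1, the sensor of long double-stranded RNA also called MDA5, ranged from 6.05 to 8.11 in papillomas with a median of 7.09, against 7.23 to 8.74 with a median of 7.99 in skin, a difference of -0.87 ± 0.19 (SE, adjusted p = 0.0025). Ifit2, which binds foreign RNA, ranged from 4.56 to 7.34 in papillomas with a median of 5.73, against 5.46 to 7.47 with a median of 6.36 in skin. Its difference was -0.70 ± 0.26 (SE, adjusted p = 0.043), with wide overlap of the groups and a higher value in the papilloma of 2 mice. The Ifit2 call was lost in 13 settings, among them batch 1 alone (adjusted p = 0.10) and without the mouse block (adjusted p = 0.056). Herc6, the mouse ligase that attaches Isg15 to proteins, fell by 0.58, and Irf9, the DNA-binding part of the STAT complex, fell by 0.44. Trim25, a ubiquitin ligase that activates the sensor RIG-I, rose by 0.38. Irf7 (0.19), Irf1 (-0.02) and Isg15 (0.24) did not pass the threshold. The guanylate-binding protein genes had lower values without passing it, at -0.90 ± 0.39 for Gbp2 (adjusted p = 0.077), -0.47 ± 0.19 for Gbp5 (adjusted p = 0.068) and -0.63 ± 0.30 for Gbp7 (adjusted p = 0.11).

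The size of the papilloma result depends on 5 arrays. Without the 5 papillomas that lay closest to spindle tumours or to skin (from mice 1407, 1508, 1815 and 1984), a choice made after the data were seen, 21 genes fell, where 22.9% of all genes did, and 2 rose, where 28.3% did. The median difference was then -0.53 in the remaining 12 mice. Without mouse 1815 alone, 14 genes were called in either direction, where 45.8% of all genes were. Both papillomas of mouse 1815, which had keratinocyte markers of 5.35 and 6.06, and 1 papilloma of mouse 1984, at 6.36, had interferon-induced gene means of 7.93, 7.42 and 8.77. The means of all other papillomas lay between 6.06 and 7.89.

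Macrophage markers, a list of 10 genes, moved with the set across papillomas. The lowest array mean of the 35 genes among papillomas, 6.06, came with a macrophage mean of 7.27, and the highest, 8.77, with a macrophage mean of 10.94, in each case the lowest and highest of the papillomas. By mouse the macrophage markers ran from 7.65 to 10.04 in papillomas and from 7.65 to 9.95 in skin. At the threshold, 3 of the 10 were higher and 0 lower in papillomas, where 24.5% and 18.1% of all genes were. All 6 neutrophil markers rose, with a median difference of 2.60 and list means from 7.88 to 10.82 in papillomas against 5.21 to 7.90 in skin. The part of these cells in the result was not tested.

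**Figure D2:**
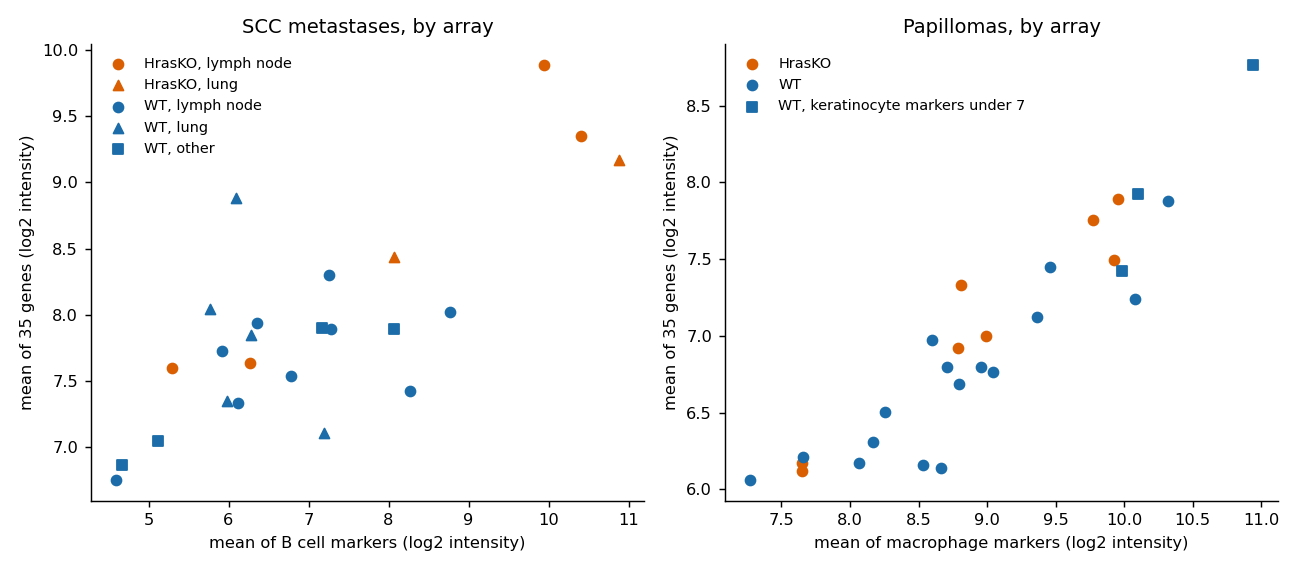
Left, mean of the 35 genes against the mean of B cell markers in each SCC metastasis array, by genotype (colour) and site (shape); right, mean of the 35 genes against the mean of macrophage markers in each papilloma array, with the 3 papillomas low in keratinocyte markers as squares. All axes are log2 intensities. The 3 arrays above 9 on the left have B cell means of 9.95 to 10.88, and on the right the lowest and highest arrays are so on both axes.

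SCC carcinomas were compared with the skin of the 8 mice that had both. Oasl1, Oasl2 and Irf1 rose and Iigp1, Ifit2, Ifih1 and Irf9 fell. Thus 3 of 35 genes rose, against 15.6% of all genes, and 4 fell, against 15% of all genes. Their median difference was -0.24, against 0.06 for all genes.

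Oasl1 measured 7.96 at the lowest, 9.45 at the median and 9.84 at the highest in SCC carcinomas (n = 8), against 5.22, 6.04 and 7.68 in skin (n = 15). The groups did not overlap, and the difference was 2.98 ± 0.23 (SE, adjusted p = 6.4e-05). Iigp1 measured 4.72, 5.73 and 6.67 in SCC carcinomas, against 6.08, 7.95 and 8.70 in skin, and was lower in 8 of 8 mice, with a difference of -1.52 ± 0.26 (SE, adjusted p = 0.0028). Ifit2 measured 4.94, 5.47 and 6.59 in SCC carcinomas, against 5.46, 6.36 and 7.47 in skin, and was also lower in 8 of 8 mice. Its difference was -1.08 ± 0.24 (SE, adjusted p = 0.0084). Ifih1, from 6.57 to 7.90 in SCC carcinomas against 7.23 to 8.74 in skin, differed by -0.84 ± 0.19 (SE, adjusted p = 0.0086). Papillomas and SCC carcinomas were set against skins of the same mice. Without the 8 SCC carcinoma arrays that lay closest to papillomas, 2 mice remained and 0 of the 35 genes were called, as 0% of all genes were. The difference was then 2.67 for Oasl1, -1.08 for Iigp1 and -1.25 for Ifit2.

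Against papillomas of the same 8 mice, SCC carcinomas had 0 of 35 genes past the threshold, where 0.202% of all genes passed. Of the 35, 3 had an unadjusted p under 0.05, where 1768 of all 18772 genes did. The median difference was 0.18, and 29 of 35 were positive. Irf7, the factor that amplifies type I interferon production, had the largest difference. It measured 7.71, 8.38 and 10.10 in SCC carcinomas (lowest, median and highest), against 5.76, 8.15 and 9.34 in papillomas, with a difference of 0.85 ± 0.44 (SE, adjusted p = 0.62). Irf1, the factor induced by interferon gamma, measured 8.44, 9.05 and 9.72 in SCC carcinomas, against 7.45, 8.21 and 9.68 in papillomas, with a difference of 0.81 ± 0.25 (SE, adjusted p = 0.30). The groups overlapped in both genes.

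Spindle carcinomas, tumours whose cells have lost epithelial form, were compared with skin in 10 mice. Of the set, 8 of 35 genes rose and 0 fell, where 27.5% of all genes rose and 19.2% fell. The share that rose is not above that of all genes. The median difference of the 35 was 0.53 and 31 were positive, and the mean of the set was higher in the carcinoma in 8 of 10 mice, by 0.53 ± 0.89 (SD). The 8 were Oasl1, Dhx58, Oasl2, Irf1, Oas3, Bst2, Trim25 and Isg15.

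Dhx58, the sensor LGP2 that regulates MDA5, was 6.41 at the lowest, 7.63 at the median and 8.41 at the highest in spindle carcinomas (n = 10), against 5.17, 6.03 and 6.96 in skin (n = 15). It was higher in the carcinoma in 10 of 10 mice, by 1.34 ± 0.23 (SE, adjusted p = 0.00074), and the groups overlapped only between 6.41 and 6.96. Oasl1 measured 5.96, 7.54 and 10.28 in spindle carcinomas, against 5.22, 6.04 and 7.68 in skin, a difference of 1.35 ± 0.39 (SE, adjusted p = 0.015). Its highest value belonged to mouse 1949, whose spindle carcinoma array resembled papillomas. Without the arrays closest to another group the difference was 0.98. Oasl2, another member of the synthetase family, measured 7.91, 8.52 and 9.95 in spindle carcinomas, against 5.94, 8.00 and 9.21 in skin. It differed by 1.26 ± 0.47 (SE, adjusted p = 0.044) and was higher in 7 of 10 mice. The Oasl2 call was lost in 11 settings, among them batch 1 alone (adjusted p = 0.092) and repeated quantile normalization (adjusted p = 0.050). Irf1 measured 8.75, 9.31 and 9.77 in spindle carcinomas, against 7.48, 8.43 and 9.12 in skin, and differed by 0.96 ± 0.21 (SE, adjusted p = 0.0032). With the mean of both Irf1 probe sets the difference was 0.45 (adjusted p = 0.056).

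Against papillomas of the same 9 mice, 2 of 35 genes rose in spindle carcinomas and 0 fell, where 12.6% of all genes rose and 11.2% fell. Their median difference was 0.71, with 33 of 35 positive and 11 at an unadjusted p under 0.05, where 7002 of all 18772 genes were. Irgm1, an immunity-related GTPase that protects self membranes, measured 7.15, 8.73 and 9.15 in spindle carcinomas, against 6.32, 7.63 and 8.44 in papillomas. The difference was 0.82 ± 0.25 (SE, adjusted p = 0.041). Irf1 measured 8.75, 9.31 and 9.77 in spindle carcinomas, against 7.45, 8.21 and 9.68 in papillomas, and differed by 0.76 ± 0.20 (SE, adjusted p = 0.025). The call was lost in 9 settings for Irgm1, among them batch 1 alone (adjusted p = 0.093), and in 5 for Irf1. Without the 5 papillomas named above, 17 genes rose, where 21.5% of all genes did, and 1 fell, where 15.3% did, with a median of 1.06. Without carcinomas titled RegCA, 5 mice were left and 0 genes were called, as 0% of all genes were.

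Spindle and SCC carcinomas were compared in the WT mice (6 and 8 mice, of which 5 had both). The difference had a median of 0.80, and 33 of 35 genes were positive. Ifit3 and Ifit2 rose, so that 2 of 35 genes rose, where 3.47% of all genes did, and 0 fell, where 4.09% did. In all, 18 had an unadjusted p under 0.05, where 4459 of all 18772 genes did. Ifit3, which stabilises the binding of Ifit1 to RNA in human cells, ranged from 5.69 to 9.01 in WT spindle carcinomas (median 8.15, n = 6), against 4.71 to 6.24 in SCC carcinomas (median 5.83, n = 8). The difference was 1.97 ± 0.46 (SE, adjusted p = 0.024). Ifit2 ranged from 5.44 to 8.22 in WT spindle carcinomas (median 7.65), against 4.94 to 6.59 in SCC carcinomas (median 5.47), and the difference was 1.62 ± 0.41 (SE, adjusted p = 0.030). The lowest spindle value of both genes was that of mouse 1949. Without arrays closest to another group the difference was 2.0 for Ifit3 (adjusted p = 0.11) and 1.82 for Ifit2 (adjusted p = 0.078). Only the SCC carcinomas of mice 1383 and 2022 remained in that fit. The call was lost in 6 settings for Ifit3 and 8 for Ifit2. Without mouse 1949, 17 genes were called, where 21.6% of all genes were, and without mouse 1383, 0, where 0.112% were.

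Macrophage markers moved with the set in spindle carcinomas. All 10 rose against skin (median 1.41), where 27.5% of all genes rose, and 6 of 10 against papillomas (median 1.19), where 12.6% did. Against SCC carcinomas 1 of 10 passed (median 1.26), where 3.47% of all genes rose. Their mean by mouse was 8.79 to 10.63 in spindle carcinomas, against 7.65 to 9.95 in skin, 7.65 to 10.04 in papillomas and 7.84 to 9.87 in SCC carcinomas. All 8 keratinocyte markers fell against skin and against papillomas. B cell list means stayed low, from 4.49 to 5.76 in spindle carcinomas. Whether the macrophages account for the difference was not tested.

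**Figure D3:**
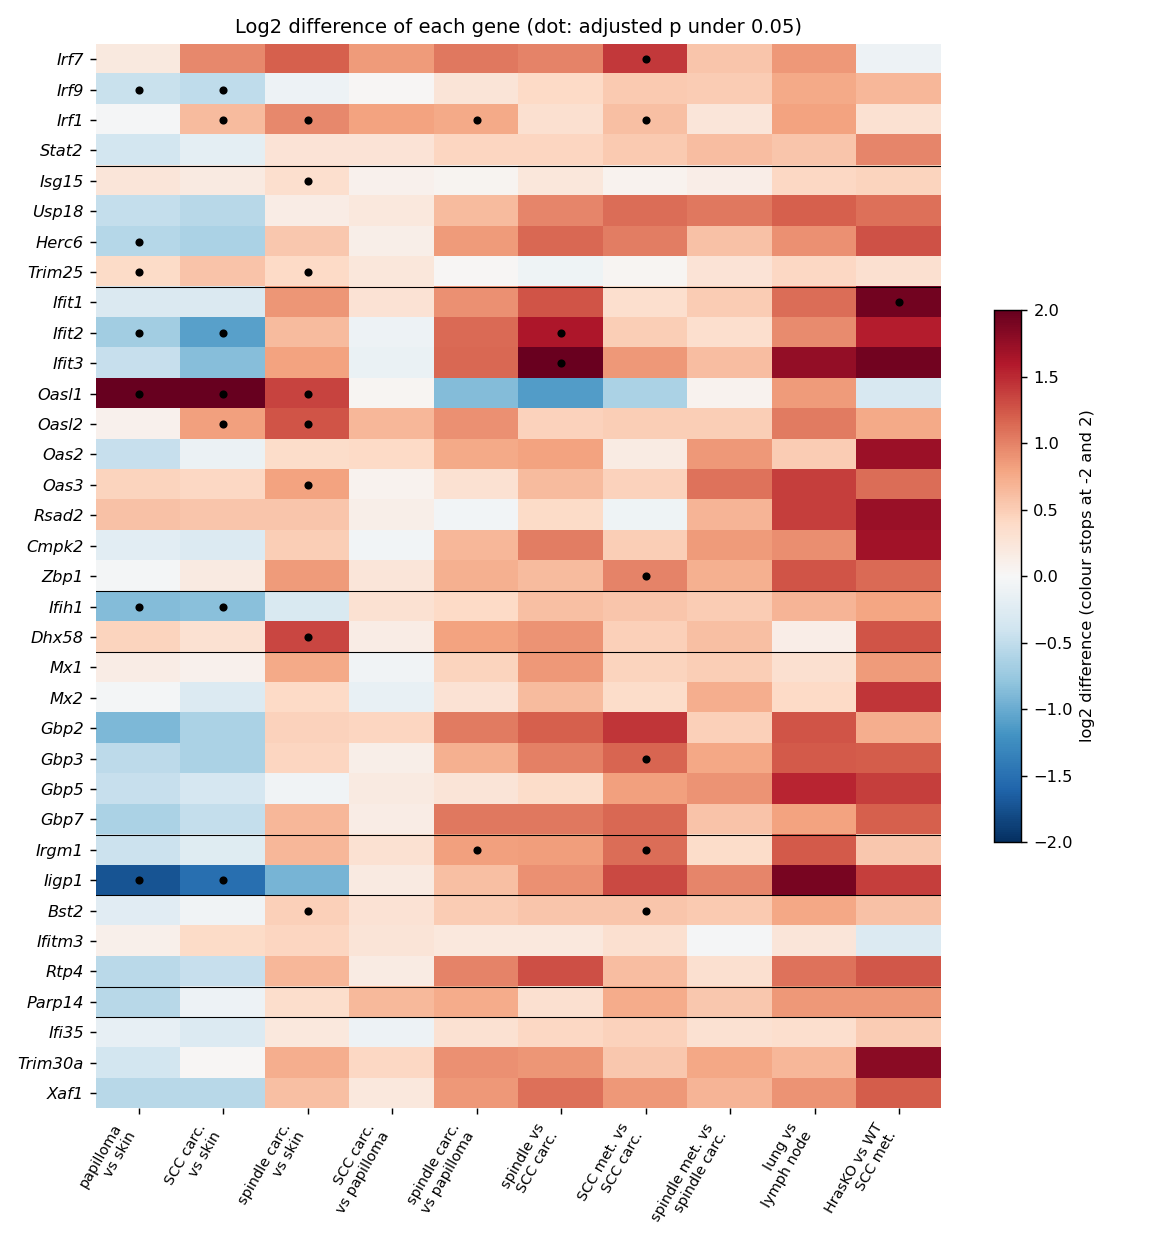
Log2 difference of each of the 35 genes (rows, grouped by role) in 10 comparisons (columns), red where higher and blue where lower in the group named first, with a dot where the limma adjusted p is under 0.05. Against skin, 10 of 35 differences are positive in papillomas and 13 in SCC carcinomas, with Oasl1 deepest in red, while 33 are positive in SCC metastases and 34 in spindle metastases against their carcinomas.

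**Figure D4:**
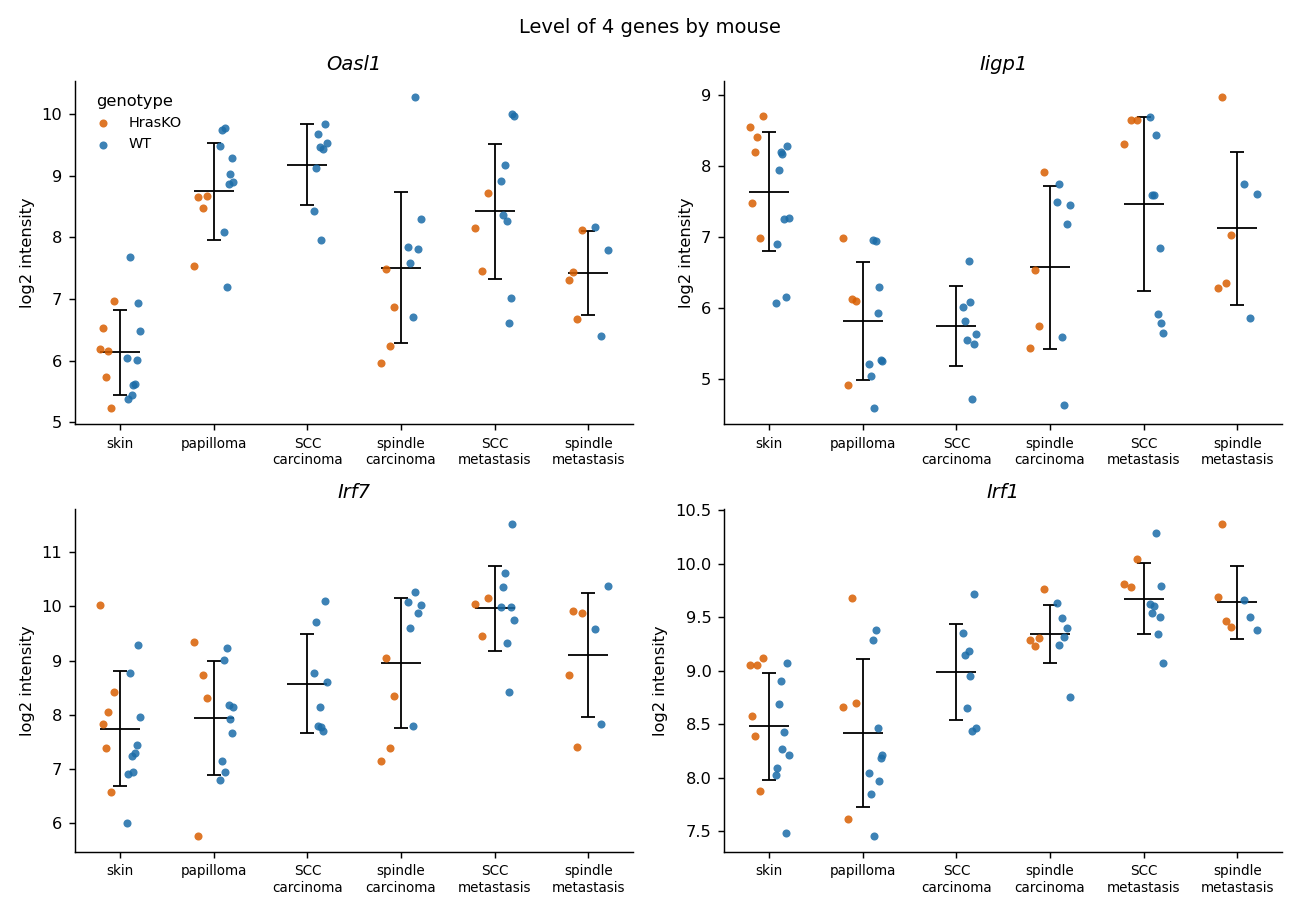
Log2 intensity of Oasl1, Iigp1, Irf7 and Irf1 in each mouse by tissue (HrasKO orange, WT blue), with the mean and SD over mice as bars. Oasl1 is high in papilloma and SCC carcinoma where Iigp1 is low, and the group means of Irf1 and Irf7 are highest in the metastases.

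Metastases were set against the primary carcinomas of the same mice. SCC metastases carried more of the set: 6 of 35 genes rose, where 1.81% of all genes rose, and 0 fell, where 2.74% did. The median difference was 0.53, with 33 of 35 positive and 24 at an unadjusted p under 0.05, where 4089 of all 18772 genes were. The 6 genes were Irf7, Gbp3, Irgm1, Zbp1, Irf1 and Bst2.

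Irf7 measured 8.42 at the lowest, 9.995 at the median and 11.52 at the highest in SCC metastases (n = 11), against 7.71, 8.38 and 10.10 in SCC carcinomas (n = 8). It was higher in the metastases in 8 of 8 mice, by 1.42 ± 0.24 (SE, adjusted p = 0.016). Gbp3, a guanylate-binding protein of the family that coats pathogen vacuoles, measured 5.64, 6.96 and 8.17 in SCC metastases, against 4.36, 5.47 and 6.15 in SCC carcinomas. It was higher in 7 of 8 mice, by 1.16 ± 0.22 (SE, adjusted p = 0.022). Irgm1 measured 7.82, 8.84 and 9.57 in SCC metastases, against 6.28, 7.84 and 8.21 in SCC carcinomas, a difference of 1.12 ± 0.27 (SE, adjusted p = 0.048). The Irgm1 call was lost in 11 settings, among them batch 1 alone (adjusted p = 0.11). Zbp1, a sensor of Z-form nucleic acid that can start necroptosis, measured 7.06, 7.97 and 9.74 in SCC metastases, against 5.52, 6.81 and 7.08 in SCC carcinomas. It differed by 0.99 ± 0.20 (SE, adjusted p = 0.029) and was higher in 8 of 8 mice. The call was lost in 3 settings for Irf7, 5 for Gbp3 and 8 for Zbp1. The largest difference of the 35, 1.44 ± 0.36 for Gbp2 (SE, adjusted p = 0.053), was positive in 8 of 8 mice and just missed the threshold, as did 0.37 ± 0.09 for Mx2 (SE, adjusted p = 0.052). Without arrays closest to another group, only mice 1383 and 2022 were left. The difference was then 1.43 for Irf7, 0.66 for Gbp3, 0.71 for Irgm1 and 0.11 for Zbp1.

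Markers of several cell types moved with these differences. Of 7 B cell markers 3 rose (median 1.28), of 6 T cell markers 1 (median 1.02) and of 5 plasma cell markers 3 (median 2.61). Of 10 macrophage markers 2 rose (median 0.80), of 8 lung markers 1 (median 1.34), and of 8 keratinocyte markers 2 fell (median -1.09). Over all genes, 1.81% rose and 2.74% fell. The B cell list mean was 5.78 to 8.88 in SCC metastases, against 4.54 to 5.47 in SCC carcinomas, without overlap. The T cell list mean was 5.14 to 8.26 in SCC metastases, against 4.43 to 5.98 in SCC carcinomas. In lymph node metastases alone, in 6 mice, 0 genes were called, where 0.32% of all genes were, with a median of 0.53. The part of these cells was not tested.

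In spindle metastases the median difference from spindle carcinomas was 0.55, and 34 of 35 genes were positive in 7 mice. No gene passed, as 0% of all 18772 genes did by limma. Of the 35, 17 had an unadjusted p under 0.05, where 2495 of all genes did. Oas3, a synthetase that activates the ribonuclease RNase L, measured 5.12, 7.16 and 8.81 in spindle metastases (lowest, median and highest), against 4.70, 6.30 and 7.005 in spindle carcinomas, with a difference of 1.09 ± 0.48 (SE, adjusted p = 0.38). Usp18, which removes Isg15 and dampens interferon receptor signalling, measured 6.32, 8.29 and 8.93 in spindle metastases, against 5.36, 7.37 and 8.19 in spindle carcinomas. It was higher in 6 of 7 mice, by 1.06 ± 0.25 (SE, adjusted p = 0.28). Markers of other cells were also higher or lower in spindle metastases, with medians of 1.83 for B cell, 1.57 for T cell, 2.47 for plasma cell and -1.97 for keratinocyte markers and 0 called in each list. The B cell list mean was 5.49 to 10.002 in spindle metastases, against 4.49 to 5.76 in spindle carcinomas, and its part in the result was not tested. The change from carcinoma to metastasis was also compared between spindle and SCC tumours with an interaction term, in a fit that includes mice with only 1 of the tissues. Its median, spindle minus SCC, was -0.46, while the fits within mice gave medians of 0.55 and 0.53. The interaction fit had no genotype term. All SCC carcinomas were WT, while the SCC metastases included HrasKO mice 1616, 1664 and 1706, with means of the set from 8.38 to 8.96. Genotype and histology therefore cannot be told apart in that median. No gene passed the interaction test, as 0% of all genes did, and 3 had an unadjusted p under 0.05, where 1806 of 18772 did.

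Between the metastases themselves, spindle and SCC did not separate with all sites and arrays kept. The SCC metastases include the 6 SCC arrays that correlated best with spindle tumours. The median difference was -0.02 over 15 mice, 16 genes were positive, and 0 passed at either the adjusted or the unadjusted threshold. Over all genes 0.0693% passed after adjustment, and 3378 of 18772 had an unadjusted p under 0.05. The largest was Oasl1, at 6.40, 7.43 and 8.16 in spindle metastases, against 6.62, 8.37 and 9.99 in SCC metastases, with a difference of -0.72 ± 0.44 (SE, adjusted p = 0.41). The Oasl1 difference was -1.53 in lymph node metastases alone (adjusted p = 0.019) and -1.03 without arrays closest to another group (adjusted p = 0.25). Irf7 measured 7.40, 9.59 and 10.39 in spindle metastases, against 8.42, 9.995 and 11.52 in SCC metastases, and differed by -0.68 ± 0.42 (SE, adjusted p = 0.42).

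Sites of metastasis were compared in a fit over 5 sites with mouse as a block and a histology term. Between lung and lymph node metastases, all 35 genes had a positive difference, with a median of 0.87. Of them, 25 had an unadjusted p under 0.05, where 1478 of all 18772 genes did. None passed after adjustment, where 0.272% of all genes passed. The mean of the set was 8.26 ± 0.85 in lung metastases (SD, n = 10) and 7.74 ± 0.58 in lymph node metastases (SD, n = 14). It was higher in lung in 7 of 9 mice with both. Those 9 within-mouse differences averaged 0.59 ± 0.93 (SD), without a histology term, and ran from -1.097 in mouse 1984 to 1.65 in mouse 1383. The lung value of mouse 1508, 9.66, the highest of the 10, is that of the mixed metastasis. In mice 1664, 1949 and 1984 the lung metastasis was SCC and the lymph node metastases were spindle. The histology term takes up the site difference of these mice and of mouse 1508. The fitted lung differences therefore rest on mice 1383, 1456, 1537, 1616 and 1717.

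Iigp1 had the largest difference between lung and lymph node. In lung metastases its lowest, median and highest levels were 5.92, 8.81 and 10.68, against 5.68, 7.21 and 8.66 in lymph node metastases. The difference was 1.90 ± 0.41 (SE, adjusted p = 0.090). It passed the threshold in batch 1 alone (adjusted p = 0.048), without arrays closest to another group (adjusted p = 0.043) and without mouse 1664 (adjusted p = 0.031). Ifit3 measured 5.84, 7.48 and 10.58 in lung metastases, against 5.40, 6.95 and 9.15 in lymph node metastases, with a difference of 1.76 ± 0.66 (SE, adjusted p = 0.47) and the reverse order in 2 of 9 mice. Of 8 lung epithelial markers 6 rose, with a median of 5.63 and list means from 4.83 to 11.35 in lung metastases against 4.52 to 5.63 in lymph node metastases. B cell markers had a median difference of 1.22, with 0 of 7 past the threshold. The part of lung tissue in the result was not tested.

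The other sites had 3 mice each. In liver, 0 genes passed, where 3.47% of all genes did, and 2 had an unadjusted p under 0.05, where 3245 of 18772 did. The median difference from lymph node was 0.25. That median was -0.05 without mouse 1815 and 0.73 without mouse 1383. Iigp1 was 9.30, 8.91 and 9.20 in the liver metastases of mice 1383, 1664 and 1815, against 7.14, 6.31 and 7.54 in their lymph node metastases. The groups did not overlap in these mice, and the fitted difference was 1.44 ± 0.50 (SE, adjusted p = 0.15). Mx2, a dynamin-like GTPase, was 4.87, 6.61 and 8.07 in the liver metastases of the same mice, against 4.56, 5.82 and 5.90 in their lymph node metastases, a fitted difference of 1.01 ± 0.44 (SE, adjusted p = 0.26). All 8 liver markers rose there, by a median of 6.31.

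In spleen metastases 0 genes passed, where 0.149% of all genes did, and 2 had an unadjusted p under 0.05, where 2287 of 18772 did. The median was 0.02. Rsad2, also called viperin, which makes a chain-terminating nucleotide, was 6.80, 12.02 and 7.62 in the spleen metastases of mice 1407, 1815 and 1949, against 7.08, 7.26 and 5.78 in their lymph node metastases. Cmpk2, its neighbour in the genome, was 5.53, 9.96 and 6.44 in the spleen metastases, against 5.83, 6.49 and 5.03 in the lymph node metastases. Mouse 1815 was far above the others and mouse 1407 ran the other way. The fitted differences were 2.05 ± 0.73 for Rsad2 (SE, adjusted p = 0.26) and 1.495 ± 0.61 for Cmpk2 (SE, adjusted p = 0.33). The spleen metastasis of mouse 1815 also had the highest B cell mean of the 3, 9.63, and its part in the result was not tested. In thymus metastases all 35 differences were positive with a median of 0.28, yet 0 passed either threshold, as 0% of all genes did after adjustment. Over all genes, 315 of 18772 had an unadjusted p under 0.05. Oasl1 was 9.63, 8.66 and 8.53 in the thymus metastases of mice 1383, 1456 and 1664, against 9.06, 8.20 and 7.64 in their lymph node metastases. Rsad2 was 6.39, 7.74 and 8.57 in those thymus metastases, against 5.91, 6.46 and 7.06 in the lymph node ones.

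HrasKO and WT mice were compared within each tissue, with batch as a covariate. The largest contrast was in SCC metastases, from 3 HrasKO and 8 WT mice. The mean of the set was 8.59 ± 0.32 in HrasKO mice (SD, n = 3) and 7.59 ± 0.37 in WT mice (SD, n = 8). The median difference was 1.11, 32 of 35 genes were positive and 25 had an unadjusted p under 0.05, where 2369 of all 18772 did. Ifit1 rose, which makes 1 of 35 genes, where 0.0479% of all genes rose, and 0 fell, where 0.107% did.

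Ifit1 recognises RNA whose cap lacks methyl groups. It was 7.84, 8.03 and 8.19 in the SCC metastases of HrasKO mice 1616, 1664 and 1706, against 5.41 at the lowest, 5.94 at the median and 6.66 at the highest in WT mice. The genotypes did not overlap, and the difference was 1.93 ± 0.25 (SE, adjusted p = 0.035). The Ifit1 call was lost in 9 settings, among them individual arrays (adjusted p = 0.075) and without mouse 1616 (adjusted p = 0.13). Ifit3 was 8.23, 9.07 and 8.53 in the same HrasKO mice, against 5.84, 6.56 and 7.68 in WT mice, with a difference of 1.93 ± 0.33 (SE, adjusted p = 0.063).

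The HrasKO arrays behind this contrast went against their histology label. Of the 6 HrasKO SCC metastasis arrays, 5 lay closest to spindle tumours. The lung metastasis of mouse 1616 had keratinocyte, B cell and interferon-induced means of 5.75, 10.88 and 9.17. The most extreme lymph node array of mouse 1706 had means of 6.43, 9.95 and 9.89 for the same 3 lists. Another lymph node array of mouse 1706, also closest to spindle tumours, had means of 8.63, 6.27 and 7.63, near the WT mean of the set. The only HrasKO array closest to SCC, a lymph node metastasis of mouse 1616, had a keratinocyte mean of 9.73, a B cell mean of 5.29 and an interferon-induced mean of 7.60, next to the WT mean of 7.59. Without arrays closest to another group, which leaves that single HrasKO mouse and 7 WT mice, 0 genes were called, 0 had an unadjusted p under 0.05 and the median difference was -0.15. The B cell list mean by mouse was 8.07 to 8.88 in HrasKO SCC metastases, against 5.78 to 8.77 in WT ones, and 0 of 7 B cell markers passed. Genotype, histology and lymphoid content cannot be told apart in these metastases.

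In the other tissues the genotypes were not separated. In skin the median difference was 0.27 with 28 of 35 positive. No gene passed, where 0.00533% of all genes did, and 5 had an unadjusted p under 0.05, where 2062 of 18772 did. Trim30a, a mouse ligase that restrains Toll-like receptor signalling, was 8.01 at the lowest, 9.25 at the median and 10.22 at the highest in HrasKO skin (n = 6), against 6.88, 8.08 and 9.63 in WT skin (n = 9), and differed by 1.099 ± 0.43 (SE, adjusted p = 0.37). Gbp7 was 7.72, 8.48 and 9.39 in HrasKO skin, against 6.53, 7.495 and 9.29 in WT skin, and differed by 0.91 ± 0.38 (SE, adjusted p = 0.40).

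In papillomas the median was 0.27, with 33 positive, and 0 genes passed at either threshold. Over all genes 0.00533% passed after adjustment, and 959 of 18772 had an unadjusted p under 0.05. Leaving out 1 mouse gave a median of 0.08 (without 1456) to 0.74 (without 1509). Bst2 averaged 8.01 ± 0.60 in HrasKO papillomas (SD, n = 4) and 7.29 ± 0.83 in WT papillomas (SD, n = 9), with a fitted difference of 0.80 ± 0.44 (SE, adjusted p = 1.00). Oasl1 averaged 8.33 ± 0.54 in HrasKO papillomas and 8.93 ± 0.83 in WT papillomas, with a fitted difference of -0.68 ± 0.43 (SE, adjusted p = 1.00). The papilloma to skin difference did not separate by genotype: 0 genes passed the interaction test, as 0% of all genes did, and its median was -0.12.

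Spindle carcinomas ran the other way. The median was -0.35 and 3 of 35 genes were positive in 4 HrasKO and 6 WT mice. Mouse 1664 (HrasKO) was the only batch 2 mouse among them, so the batch term took up its value. The fitted differences therefore rest on the other HrasKO mice, while the levels given include mouse 1664. No gene passed, as 0% of all genes did, and 3 had an unadjusted p under 0.05, where 626 of 18772 did. Irf7 was 7.14, 7.86 and 9.05 (lowest, median and highest) in HrasKO spindle carcinomas, against 7.79, 9.96 and 10.28 in WT ones, with a difference of -1.75 ± 0.60 (SE, adjusted p = 0.99). Oasl1 was 5.96, 6.56 and 7.49 in HrasKO spindle carcinomas, against 6.71, 7.82 and 10.28 in WT ones, with a difference of -1.52 ± 0.69 (SE, adjusted p = 0.99). In spindle metastases (4 HrasKO and 3 WT mice) the median was -0.08, 15 were positive, and 0 passed at either threshold, as 0% of all genes did after adjustment. Here too the batch term took up mouse 1664, so the fitted median rests on the other HrasKO mice. Over all genes, 394 of 18772 had an unadjusted p under 0.05. Ifit3 averaged 7.20 ± 0.86 in HrasKO spindle metastases and 7.69 ± 1.68 in WT ones, and Mx1, a dynamin-like GTPase, 5.89 ± 0.38 in HrasKO and 6.59 ± 1.01 in WT ones.

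In these comparisons with all arrays kept, Stat2, Usp18, Oas2, Rsad2, Cmpk2, Mx1, Mx2, Gbp2, Gbp5, Gbp7, Ifitm3, Rtp4, Parp14, Ifi35, Trim30a and Xaf1 never passed the threshold, and each of the other measured genes of the set passed it at least once.

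Bst2, also called tetherin, which holds budding virus at the cell surface, differed between mice more than any other of the 35 genes. After each array was centred on its group mean, the mouse accounted for 0.604 of the variance of Bst2 over 108 arrays, against 0.213 for Mx2, the next of the set. The median share was 0.124 in the 35 genes and 0.0788 in all genes, and 42 of 18772 genes had a larger share than Bst2. In mouse 1706, Bst2 measured 8.92 in skin, 8.35 in the papillomas and 9.23 in the SCC metastases, with 7.60 in a carcinoma of mixed histology. In mouse 1949 it measured 6.82 in skin, 6.87 in the papillomas, 6.86 in the SCC carcinomas and 7.59 in the SCC metastasis. Bst2 lay above the mean of the tissue in every one of the 6 tissue groups plotted that was sampled in 4 mice and below it in every one in 6 mice, whereas Oasl1 did so in 2 mice and 1 mouse. The mice high throughout were 1407, 1509 and 1706 (HrasKO) and 1815 (WT). The mice low throughout were 1537 and 1616 (HrasKO, the latter sampled in only 2 of the groups) and 1383, 1508, 1949 and 2104 (WT). These shares are a description, and their cause was not tested.

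**Figure D5:**
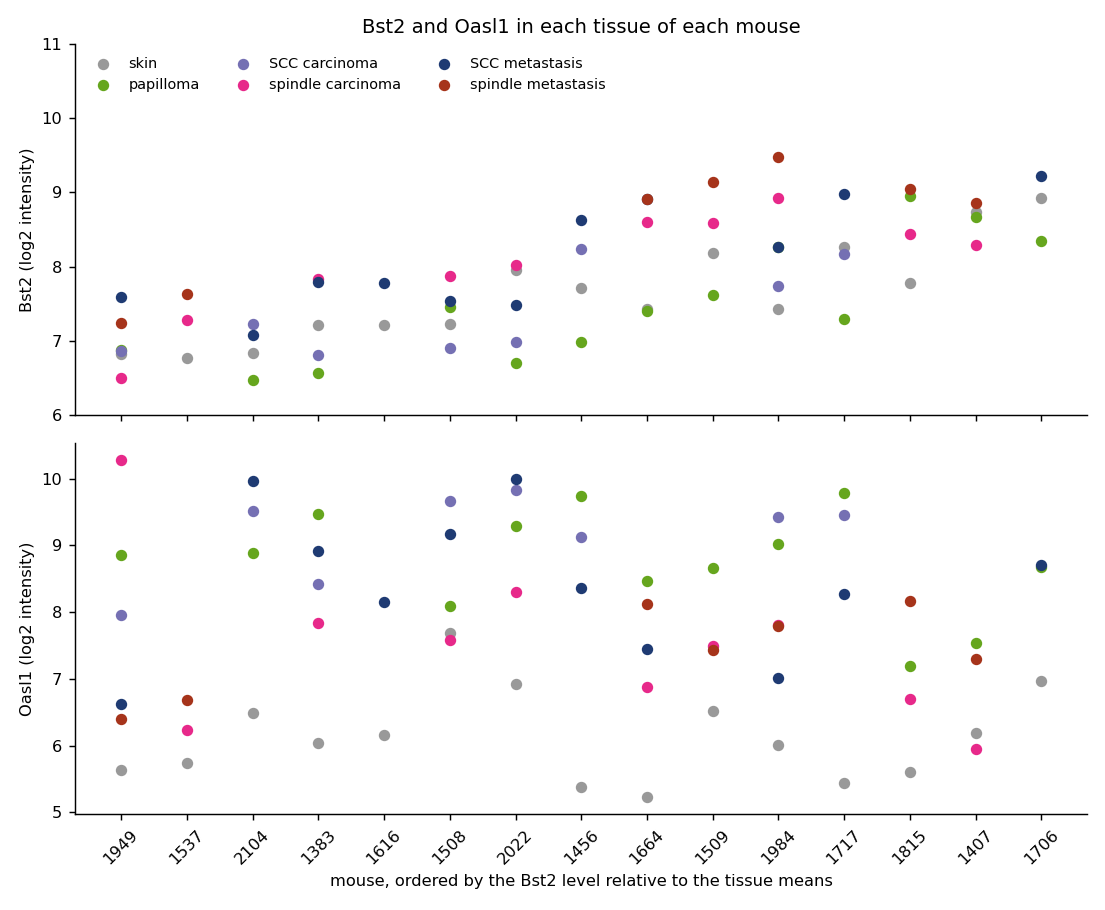
Log2 intensity of Bst2 (top) and Oasl1 (bottom) in each tissue (colour) of each of the 15 mice, ordered along the axis by the mean Bst2 level relative to the tissue means. The tissues of a mouse often move together for Bst2, as from 6.50 to 7.59 in mouse 1949 and from 8.35 to 9.23 in mouse 1706, though they run from 7.43 to 9.48 in mouse 1984. They spread further apart for Oasl1.

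The interferon ligands, receptors, sensors and inhibitors, and further interferon-induced genes, were counted in the same fits, and their counts can be read against the shares of all genes. In papillomas against skin, where 24.5% of all genes rose and 18.1% fell, 6 of 13 interferon ligands rose and 0 fell, with a median of 0.17. Their levels were low on the array, with a list mean of 4.32 in papillomas and 4.19 in skin. Ifnk, a type I interferon of keratinocytes, rose by 0.85 in papillomas against skin and fell by 0.57 in spindle carcinomas against papillomas. The other 5 rose by 0.17 to 0.25. Of 6 receptors, 4 rose and 2 fell in spindle carcinomas against skin, where 27.5% and 19.2% of all genes did. Ifnar1, a chain of the type I receptor, rose by 0.69, and Ifnlr1, the type III receptor chain, fell by 1.83.

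Of 14 nucleic acid sensors and adaptors, 10 rose and 0 fell in spindle carcinomas against skin, where 27.5% and 19.2% of all genes did. They included Sting1, which relays DNA sensing and rose by 1.43, and Unc93b1, which escorts Toll-like receptors and rose by 1.68. In papillomas against skin, 3 of the 14 rose and 2 fell, where 24.5% and 18.1% of all genes did, so neither count exceeds those shares. Among 6 inhibitors of the pathway, Socs1 rose by 0.93 and Socs3 by 0.97 in papillomas against skin, where 3 of the 6 rose and 1 fell. In SCC metastases against SCC carcinomas, 0 of 14 sensors and 0 of 13 ligands passed, where 1.81% of all genes rose and 2.74% fell. Of 9 kinases, STATs and other IRFs only Irf4, a factor of lymphocytes, rose there, by 2.44.

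Of 55 entries of further interferon-induced genes, 7 rose and 13 fell in papillomas against skin, where 24.5% and 18.1% of all genes did. Their median difference was -0.13. Ifi203 was entered both by its own name and in place of Mndal, so these counts can hold it more than once. Ifi205 fell by 2.98 and Mlkl, the effector of necroptosis, rose by 1.30. In spindle carcinomas against skin 21 of the 55 rose and 4 fell, where 27.5% and 19.2% of all genes did. In spindle carcinomas against papillomas 12 rose and 2 fell, where 12.6% and 11.2% of all genes did. In SCC metastases against SCC carcinomas 5 rose and 0 fell, where 1.81% and 2.74% of all genes did. The 5 included Psmb8, an immunoproteasome subunit, which rose by 1.21, and Ccl5, a chemokine of T cells, which rose by 1.13.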

How the data were processed

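The authors deposited a table with a log2 intensity for each of 28204 probe sets and each array, processed with RMA per the submitters' processing notes. No source used here gives the RMA version, the genome build or any batch correction. Of the probe sets, 21141 named 1 gene and were kept, and the brightest set per gene left 18772 genes. Per the labels, batch 1 held 95 arrays and batch 2 held 17 arrays of 2 mice.

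For each gene, the arrays of a mouse within a group were averaged. The averages went into two-sided limma tests (lmFit and eBayes, limma 3.58.1, R 4.3.3), with p-values adjusted by Benjamini-Hochberg over all genes at 0.05. Tissues of the same mice had mouse as a fixed block, spindle against SCC tumours had mouse as a random block (duplicateCorrelation), and genotypes had batch as a covariate. The pairing is by animal, taken from the mouse numbers in the labels. The fits were tested on simulated data before use. The members and lists were chosen with earlier results of these data known. In each comparison of stages or histologies the 4 called genes with the largest difference are given by mouse, or the 2 largest where none was called, and for sites and genotypes the 2 largest. Bst2 in the account of single mice, Gbp2, Gbp5, Gbp7 and Mx2 where they missed the threshold between tissues, and the genes of the promoter stretches were chosen after their values were seen. The upstream lists are given as counts with up to 2 called genes named. Alternatives included other probe set rules, a low-value filter, single arrays, no mouse block, repeated quantile normalization, batch 1 alone and leaving out each mouse.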

Additional observations from a re-analysis of the deposited data

Results flagged for a closer look

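In groups of 4 to 10 mice, a mouse was looked for whose value lay far from the others (Dixon's criterion at the 95% level) for 23 measures, the genes described by mouse and the mean of the set. Of 184 groups, 8 held such a mouse, and chance alone gives about 1 in 20 groups. Gbp3 in WT skin was 7.48 in mouse 2022, with the next mouse at 6.30. Irf1 in spindle carcinomas was 8.75 in mouse 2022, below the next mouse at 9.23, and in spindle metastases it was 10.4 in mouse 1509, above the next at 9.69. Irgm1 in spindle carcinomas was 7.15 in mouse 1949, whose array resembled papillomas, below the next at 8.15. Mx2 in HrasKO skin was 5.52 in mouse 1706, above the next at 4.41. In HrasKO papillomas mouse 1509 was lowest for Oasl2, at 6.31 with the next at 8.31, and for Trim30a, at 7.12 with the next at 8.83. Zbp1 in SCC carcinomas was 5.52 in mouse 1984, below the next at 6.58.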

How the results depend on the processing

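The median difference of the 35 genes kept its sign in 391 of 413 settings. The 22 changes of sign were 9 for spindle against SCC metastases, 4 for spleen, 1 for liver, 4 for HrasKO against WT spindle metastases, 1 for HrasKO against WT SCC metastases and 3 for the papilloma change by genotype, in all of which but HrasKO against WT SCC metastases the value moved by less than 1 SD over mice. The number of genes called was equal or within 1.5 times in 342 of 413. That includes the many comparisons with 0 called in the main fit, where 0 again counts as equal. Where genes were called the number moved more, as from 0 to 17 on leaving out 1 mouse for spindle against SCC carcinomas. Of the 44 genes described by mouse in a comparison, 24 kept direction and side of the threshold in every setting, none changed direction, and over all 883 settings 93 lost a call and 9 gained one. Where no cause is given below, the cause was not tested. The share of all genes called also changed between settings. For spindle against SCC carcinomas it was 21.6% without mouse 1949 and 0.112% without mouse 1383. It is not given for each count below, so those counts are not results about the set alone.

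For papillomas against skin (7 genes called), 23 were called without arrays closest to another group and 23 without the 5 papillomas, an alternative chosen after seeing the data. Leaving out 1 mouse gave 5 (without 1407) to 14 (without 1815). For spindle carcinomas against papillomas (2 called), the filter on low values gave 4, repeated quantile normalization 4, individual arrays 14, no replicate block (mouse not in the model) 7 and batch 1 alone 1. Without arrays closest to another group 23 were called, without the 5 papillomas 18, and without RegCA carcinomas, with fewer mice, 0. Leaving out 1 mouse gave 0 (without 1383) to 11 (without 1815). For SCC carcinomas against skin (7 called), 0 were called without arrays closest to another group, with 2 mice left. For spindle carcinomas against skin (8 called), individual arrays gave 13, batch 1 alone 3, without RegCA carcinomas 3, and leaving out 1 mouse 3 (without 1383) to 18 (without 1407).

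For spindle against SCC carcinomas (2 called), the filter and individual arrays gave 5 each, no replicate block 5, quantile normalization 6, without arrays closest to another group 0 and without RegCA carcinomas 1, which was lower. Leaving out 1 mouse gave 0 (without 1383) to 17 (without 1949). For SCC metastases against SCC carcinomas (6 called), individual arrays gave 13, batch 1 alone 1, and both lymph nodes alone and without arrays closest to another group 0, with fewer mice. Leaving out 1 mouse gave 1 (without 1456) to 9 (without 2104). In lymph nodes alone 1 gene, Oasl1, was lower in spindle than in SCC metastases. For lung against lymph node, batch 1 alone and without arrays closest to another group gave 1 each, and leaving out 1 mouse 0 to 1. For liver, individual arrays gave 1. For thymus, the median was 0.587 in batch 1 alone, against 0.28 with both batches. For HrasKO against WT SCC metastases (1 called), quantile normalization gave 2, no batch covariate 3 and leaving out 1 mouse 0 to 5 (highest without 1508). Without arrays closest to another group, with 1 HrasKO mouse left, the median turned to -0.145. No replicate block exists for genotypes, since no mouse holds both. The gamma-activated motif was in 7 promoter windows, against 15 for the first motif.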

Other observations

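The kidney and dorsal sites and the mixed tumours had no comparison of their own, though the kidney, dorsal and mixed metastasis arrays entered the means of their mouse by histology or site. The only kidney metastasis, from mouse 1815, had a mean of the 35 genes of 7.20, and the only dorsal one, from mouse 2104, 6.86. The mixed carcinomas of mice 1616, 1706 and 1949 measured 7.38, 7.11 and 6.94. The only mixed metastasis, from the lung of mouse 1508, measured 9.66.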
